A study of Mus musculus with 10 samples.

Results

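The genes described here are 35 named chaperone and heat shock genes, out of 55401 gene identifiers listed in each library of this series. They were chosen by name, as endoplasmic reticulum (ER) chaperone and unfolded protein response genes (20), cytosolic heat shock genes (13) and mitochondrial heat shock genes (2), by a rule that uses no measured value. The choice was made with earlier results of these data known. The series sequenced RNA of Neuro2a, a neuroblastoma line of the mouse that is labelled wild-type in genotype, in 10 libraries of 4 groups. The dCas9-SCN9A group (3 libraries) received a plasmid for dCas9, a Cas9 that binds but does not cut DNA, directed at SCN9A, and its control dCas9-empty (3 libraries) received dCas9-empty. The ZF-SCN9A group (2 libraries) received a zinc-finger protein directed at SCN9A, and mCherry (2 libraries), a red fluorescent protein, served as its control. Every group was given 0.5 µg of plasmid by lipofection for a transient transfection, a change of medium after 24 h and 72 h at 37 °C, and no heat or ER stress treatment is named in the labels. The sources used here do not give what dCas9-empty lacks, where either repressor binds, or whether transfected cells were selected. Nothing in the labels ties replicates to separate cultures, so the p-values cover the spread between libraries, and that spread may be technical.

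The ER folds secreted and membrane proteins, and when unfolded proteins accumulate there the sensors Ern1, Eif2ak3 and Atf6 start the unfolded protein response, which raises ER chaperones and the machinery that exports and degrades misfolded proteins. In the cytosol and the nucleus, heat and other proteotoxic stress release the transcription factor Hsf1, which raises heat shock genes through heat shock elements in their promoters. Constitutive members of the same families, such as Hspa8 and Hsp90ab1, are abundant in unstressed neuronal cells, whereas Hspa1a and Hspa1b are known for low levels at rest and strong induction by heat.

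The promoters of part of the members carried DNA motifs of these pathways. RefSeq start-site windows (GRCm38.p6, from 250 bases before to 50 bases after the start) were at hand for 30 of the 35 members, and not for Hsp90aa1, Hsp90ab1, Hspa8, Hyou1 and Manf. The ER stress response element ERSE, CCAAT and CCACG with 9 bases between, which is bound by NF-Y and Atf6, was found on either strand in 8 of 18 ER members with a window, in 0 of 10 cytosolic and in 0 of 2 mitochondrial members, against 0.119% of all 32851 windows. The related ERSE-II, ATTGG and CCACG with 1 base between, was found in Dnajb11 and Herpud1 and in 0.0365% of all windows. The unfolded protein response element TGACGTGG, present in 0.676% of all windows, was found in 0 of the 30 members. The CCAAT box, which is part of both ERSE and ERSE-II, was found in 22 of 30 members (16 ER, 5 cytosolic and 1 mitochondrial) and in 37.4% of all windows. A heat shock element, GAA, TTC and GAA with 2 bases between each, was searched on both strands in the same way. It was found in 2 of 2 mitochondrial members (Hspd1 and Hspe1), 1 of 10 cytosolic members (Hsph1) and 0 of 18 ER members. Of all windows 0.603% held it. Only exact matches of the letters were sought, so elements with other letters would be missed. The stretches below are the matches upstream of the start site, 5′ to 3′ on the gene's strand in GRCm38, with the fixed letters of ERSE, ERSE-II or the heat shock element in capitals. They are shown because the ERSE letters were found in ER members and the heat shock element in the mitochondrial pair. The stretches of Hspa5 (29 bases) and Hspe1 (28 bases) lie wholly in annotated exons, counted on either strand. They are upstream only of the RefSeq start used for the window.
Hspa5 (chr2:34772020-34772048, + strand): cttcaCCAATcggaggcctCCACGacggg
Hsp90b1 (chr10:86705520-86705669, - strand): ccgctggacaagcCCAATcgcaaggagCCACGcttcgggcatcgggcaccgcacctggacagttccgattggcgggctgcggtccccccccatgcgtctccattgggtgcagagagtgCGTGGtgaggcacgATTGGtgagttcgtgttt
Calr (chr8:84847062-84847106, - strand): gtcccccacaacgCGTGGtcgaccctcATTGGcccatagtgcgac
Canx (chr11:50325787-50325831, - strand): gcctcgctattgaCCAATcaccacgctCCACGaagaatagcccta
Pdia6 (chr12:17266478-17266522, + strand): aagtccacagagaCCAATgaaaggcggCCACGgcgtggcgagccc
Dnajc3 (chr14:118937814-118937858, + strand): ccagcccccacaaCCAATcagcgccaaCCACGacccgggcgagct
Creld2 (chr15:88819507-88819551, + strand): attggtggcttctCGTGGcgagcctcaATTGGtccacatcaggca
Syvn1 (chr19:6046519-6046563, + strand): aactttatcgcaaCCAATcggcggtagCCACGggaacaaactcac
Herpud1 (chr8:94386364-94386400, + strand): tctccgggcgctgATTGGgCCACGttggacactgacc
Hspe1 (chr1:55088054-55088081, + strand): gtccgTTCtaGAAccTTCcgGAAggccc
Hsp90b1 alone among the members held 2 ERSE matches in its window, at 212 to 194 and at 107 to 89 bases before the start, on opposite strands. The match in Hspa5 lay at 65 to 47 bases before the start. The last stretch lies between the start site of Hspe1 and the one of 2 Hspd1 start sites that is 216 bases away, from which the genes are transcribed in opposite directions, so both share these heat shock element letters, with 2 overlapping matches on opposite strands. A match of letters is a description and does not show that a factor binds there.

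**Figure D1:**
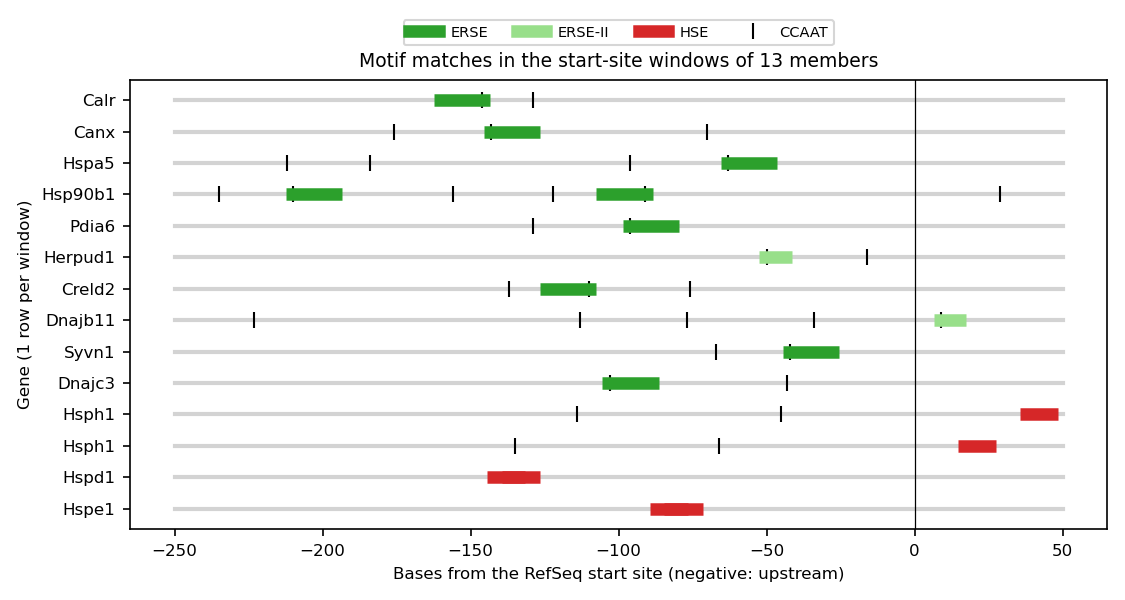
Motif matches in the RefSeq start-site windows of the 13 members that held ERSE, ERSE-II or a heat shock element (HSE), with bases from the start site on the horizontal axis and 1 row per window. Green bars (ERSE, ERSE-II) occur only in ER members, red bars (HSE) only in Hsph1, Hspd1 and Hspe1, black ticks mark CCAAT boxes, and the matches in Dnajb11 and Hsph1 lie after the start.

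Depth was 15.4 to 19.0 M gene counts per library in the dCas9 groups and 4.41 to 7.48 M in the other groups (M, 1000000), and Phox2a, Hand2, Gata3, Isl1, Stmn2, Tubb3 and Chga, markers of the neuroblastoma line, were detected in every library. Markers of other cell types were low, with summed levels of 18.1 to 33.2 counts per 1000000 (CPM) for 6 fibroblast genes, 24.4 to 36.7 for 6 glial, 0.827 to 2.59 for 6 immune and 49.4 to 101 for 6 endothelial genes. The target Scn9a, which encodes the sodium channel NaV1.7 and served as a check of the labels, was lower with both repressors. It stood at 77.0, 83.3 and 79.8 CPM in dCas9-empty and 31.6, 31.7 and 28.9 in dCas9-SCN9A, and at 60.3 and 54.3 in mCherry and 18.1 and 15.0 in ZF-SCN9A. Its log2 fold change was -1.38 ± 0.07 (SE) with dCas9 and -1.76 ± 0.14 with the zinc finger, with adjusted p = 2.24e-09 and 1.71e-34 by the edgeR quasi-likelihood fit.

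Levels of the members differed widely within each group. They were compared per exon length, as reads per kilobase of exon, scaled to depth as CPM is (RPKM). Hsp90ab1, the constitutive cytosolic HSP90 (chr17:45567775-45573271, - strand), had the highest level in all 4 groups, at 2142 ± 126 RPKM in dCas9-empty, 2088 ± 87.7 in dCas9-SCN9A (SD, n = 3 each), 1487 ± 17.4 in mCherry and 1568 ± 5.05 in ZF-SCN9A (SD, n = 2 each). Hspa8, the constitutive cytosolic HSC70 chaperone that folds new proteins and uncoats clathrin vesicles (chr9:40800984-40810087, + strand), was next in each group, at 553 ± 29.9, 546 ± 60.3, 327 ± 15.3 and 344 ± 9.14 RPKM in the same order. No library of Hspa8 overlapped one of Hsp90ab1 within a group. Below them the order differed between groups. In dCas9-empty the stress-inducible HSP90 Hsp90aa1 came next (294 ± 11.7), followed by the calcium-binding lectin chaperone Calr (254 ± 4.11), the mitochondrial chaperonin Hspd1 (244 ± 12.7), the membrane lectin chaperone Canx (226 ± 12.9) and Hspa5, the ER HSP70 also called BiP (183 ± 5.14). In mCherry, Calr (236 ± 5.02) came before Hsp90aa1 (232 ± 9.21) with overlapping libraries, and Hspa5 (218 ± 8.05) overlapped Canx (220.3 ± 7.15) and lay above Hspd1 (197 ± 7.47). In ZF-SCN9A, Hsp90aa1 (244 ± 0.888) and Calr (242 ± 8.21) overlapped in the order of the dCas9 groups, and Hspa5 (215 ± 12.5) overlapped Hspd1 (212 ± 11.8). Of the 34 neighbouring pairs in the order of levels, 11 overlapped in dCas9-empty, dCas9-SCN9A and ZF-SCN9A and 12 in mCherry.

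The 20 ER members lay between 9.38 and 248 RPKM as means over all libraries, with a median of 48.4. The lowest was Dnajc3, a co-chaperone of Hspa5 that also inhibits the kinase Eif2ak3. Cytosolic members had a median of 39.3 RPKM, and they made up 61.4% of the summed RPKM of all members, against 31.3% for ER and 7.29% for mitochondrial members. Their lower end held 4 genes near or under 2 RPKM. Dnajb4, a J-domain co-chaperone, stood at 1.89 ± 0.0413 RPKM in dCas9-empty. Hspa1b, the heat-inducible HSP70 (chr17:34956436-34959238, - strand), had 55, 21 and 19 counts in dCas9-empty, 42, 23 and 24 in dCas9-SCN9A, 3 and 7 in mCherry and 2 and 2 in ZF-SCN9A. Its neighbour and near copy Hspa1a (chr17:34969190-34972156, - strand) had 0 counts in all libraries other than dCas9-SCN9A, which had 1, 3 and 0. The small heat shock protein gene Hspb1 had between 0 and 7 counts per library. A count of 0 allows up to 3 counts, or 0.165 to 0.198 CPM in the libraries of the dCas9 groups and 0.390 to 0.654 CPM in the others, for counting error only. The annotated transcripts of Hspa1a and Hspa1b were 98.9% identical over 2214 aligned bases, so reads that match both can be lost or split and the values of both are uncertain. Inducible members were thus found at both ends of the order, with Hspa1a and Hspb1 at 0 to 7 counts and Hsp90aa1 among the most abundant.

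**Figure D2:**
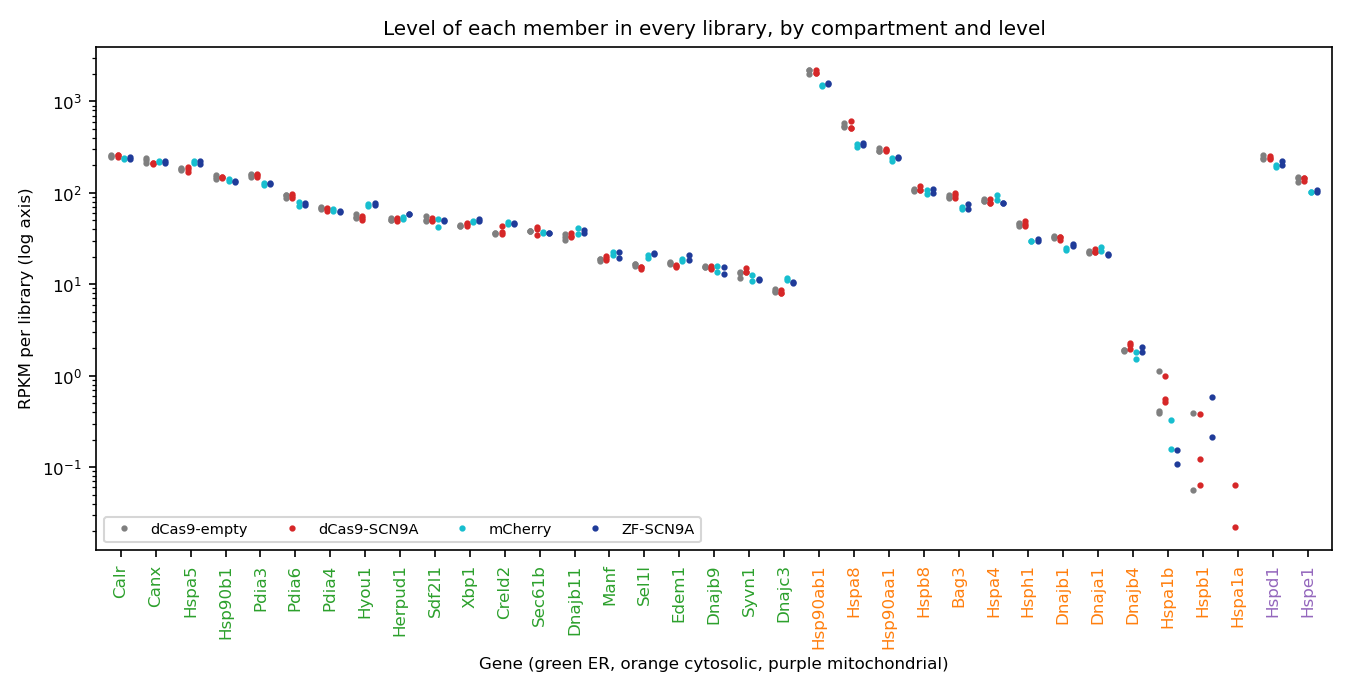
RPKM of each of the 35 members (horizontal axis, by compartment and falling level) in every library on a log axis, with 1 point per library coloured by group, and libraries at 0 not drawn. Hsp90ab1 and Hspa8 are highest in all groups, and Hspa1b, Hspb1 and Hspa1a lie lowest.

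The dCas9 comparison asked whether dCas9 directed at SCN9A changed these genes against dCas9-empty. None of the ER, cytosolic or mitochondrial members passed the test. Of the 33 members that passed the filter on low counts (all except Hspa1a and Hspb1), 0 were called at an adjusted p under 0.05 by edgeR (quasi-likelihood test, Benjamini-Hochberg adjustment over 14628 genes), where 0.041% of all genes tested were called. At an unadjusted p under 0.05 there was 1 member of 33, against 10.1% of all genes, and DESeq2 called 0 of the 26 members to which it gave an adjusted p. The 20 ER members had 9 positive and 11 negative log2 fold changes with a median of -0.01 and a range from -0.11 to 0.13. The 11 cytosolic members tested had 7 positive and 4 negative ones with a median of 0.03, and the 2 mitochondrial ones a median of -0.00, beside a median of 0.01 over all genes tested. In bulk RNA, fewer cells with a transcript and less of it per cell cannot be told apart.

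The intervals bounded these differences only against the spread between libraries, which may be technical. The 95% interval of the log2 fold change lay within a change of 1.5-fold in either direction for 32 of 33 members, and within 1.2-fold for 29. The exception to the first bound was Hspa1b, with 0.10 ± 0.42 (SE, interval -0.81 to 1.01), and Creld2, Syvn1 and Dnajb4 also reached past the second. Over all genes tested, which include many of lower counts, the intervals of 11052 of 14628 genes lay within 1.5-fold.

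Hspa5, the chaperone that holds the ER stress sensors inactive (chr2:34771970-34777547, + strand), stood at 800.2, 759 and 768 CPM in dCas9-empty and 715, 771 and 802 in dCas9-SCN9A. These ranges overlapped, and the log2 fold change was -0.02 ± 0.06 (interval -0.15 to 0.10). Hsp90b1, the ER HSP90 also called GRP94, was at 639, 604 and 578 CPM and 591, 606 and 607 CPM, with a log2 fold change of -0.01 (interval -0.13 to 0.10). Exons of 1810014B01Rik on the other strand overlap 10.3% of its exonic sequence, and strands were not separated in the counting. Xbp1, the transcription factor whose RNA is spliced by Ern1, was at 142, 144 and 140.3 CPM against 143, 153 and 149.8, with a log2 fold change of 0.06. The gene counts add spliced and unspliced Xbp1, so its activation by splicing was not measured. For Hspa5, Hsp90b1 and Xbp1 the repressor and control libraries overlapped.

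Among the ER members, Sel1l, Edem1 and Syvn1 had the lowest p-values. Sel1l, the scaffold of the ER ubiquitin ligase complex (chr12:91806043-91849157, - strand), stood at 136, 143 and 143 CPM in dCas9-empty and 125, 134 and 132 in dCas9-SCN9A. All 3 dCas9-SCN9A libraries were below all controls, with a log2 fold change of -0.11 ± 0.05 (unadjusted p = 0.0493, adjusted p = 0.493 by edgeR). Edem1, a lectin that passes misfolded glycoproteins to degradation, was at 112, 112 and 109 CPM against 106, 102 and 101, also without overlap, with a log2 fold change of -0.10 ± 0.05 (adjusted p = 0.521). Syvn1, the ubiquitin ligase that Sel1l holds, had the opposite sign at 0.13 ± 0.07 (adjusted p = 0.542), with 57.4, 66.2 and 64.6 CPM in controls and 66.3, 73.1 and 66.1 in dCas9-SCN9A. Its groups overlapped. Creld2, a secreted ER stress-induced protein, had a log2 fold change of 0.11, and its 50.8, 48.5 and 59.3 CPM in dCas9-SCN9A held 1 high library against 49.3, 49.4 and 47.9 in controls.

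Cytosolic members were as close. Hspa8 was at 2346, 2518 and 2266 CPM in dCas9-empty and 2213, 2648 and 2187 in dCas9-SCN9A, where the second library of each group was its highest. Its log2 fold change was -0.02 ± 0.08 (interval -0.18 to 0.14). Hsp90ab1 was at 6643, 6639.7 and 5988 CPM against 6121, 6567 and 6102, and Hsp90aa1 at 1208, 1135 and 1122 against 1132, 1166 and 1199, with log2 fold changes of -0.04 and 0.01 and overlapping groups. Dnajb4 had the largest value of the cytosolic members, 0.18 ± 0.09 (adjusted p = 0.530), at 16.9, 16.2 and 16.7 CPM in controls and 17.3, 20.2 and 18.8 in dCas9-SCN9A. With Sel1l and Edem1 it was among the 3 of 33 members whose groups did not overlap, beside 15.7% of all genes tested. Dnaja1, a J-domain partner of Hspa8, and the small heat shock protein Hspb8 had log2 fold changes of 0.06 and 0.05. Dnaja1 was at 199, 190 and 194 CPM in dCas9-empty and 197, 196.5 and 212 in dCas9-SCN9A. Hspb8 was at 208, 216 and 205 CPM in dCas9-empty and 209, 233 and 208 in dCas9-SCN9A. The mitochondrial chaperonin Hspd1 (683, 631 and 619.8 against 633, 621 and 668 CPM) and its lid Hspe1 (213, 218 and 195 against 197, 216 and 212 CPM) had log2 fold changes of -0.01 and 0.00.

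The zinc-finger comparison put the same question to ZF-SCN9A against mCherry. Hspa4, a cytosolic HSP110 that exchanges nucleotide on HSP70 chaperones, was the only member called, and it was lower. Of the 32 members that passed the filter (Hspa1a, Hspa1b and Hspb1 did not), 1 was called, against 4.72% of the 12899 genes tested. At an unadjusted p under 0.05 there were 2 members of 32, Hspa4 and Dnaja1, against 16.2% of all genes, and DESeq2 called 0 of 32. The ER members had 9 positive and 11 negative log2 fold changes with a median of -0.01 (range -0.11 to 0.15). The 10 cytosolic members had 8 positive and 2 negative with a median of 0.07 (range -0.20 to 0.23), and the 2 mitochondrial members were both positive, with a median of 0.08, beside 0.00 over all genes. The 95% interval lay within 1.5-fold for 31 of 32 members, all but Dnajb4 (-0.13 to 0.59), and within 1.2-fold for 24.

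Hspa4 (chr11:53259814-53300457, - strand) stood at 519 and 467 CPM in mCherry and 425 and 430.0 in ZF-SCN9A. Both ZF-SCN9A libraries were below both controls, and the log2 fold change was -0.20 ± 0.06 (SE, interval -0.32 to -0.08, adjusted p = 0.0392 by the edgeR quasi-likelihood fit). Leaving out 1 library ended the call in 3 of 4 cases. Without mCherry replicate 1, the higher control, the log2 fold change was -0.12 with an adjusted p = 0.560, and it was also lost without ZF-SCN9A replicate 1 (-0.19, adjusted p = 0.424) or replicate 2 (-0.21, adjusted p = 0.330), where the lone library left in a group is assumed to vary like the others. With DESeq2 it was -0.21 with an adjusted p = 0.322. The dCas9 comparison of Hspa4 gave -0.03 ± 0.06, with 470.3, 450.4 and 455 CPM in dCas9-empty and 432, 433 and 479 in dCas9-SCN9A, and the difference between the repressors' changes was 0.17 ± 0.09 (adjusted p = 0.488).

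Dnaja1 (chr4:40722150-40737149, + strand) had a similar value that did not pass adjustment, at 220.5 and 197 CPM in mCherry and 181 and 185 in ZF-SCN9A, with a log2 fold change of -0.18 ± 0.07 (adjusted p = 0.131). It passed without mCherry replicate 2 (-0.26, adjusted p = 0.0267). Exons of Smu1 on the other strand overlap 7.05% of its exon bases. The other cytosolic members mostly had small positive values. Hspa8 was at 1361 and 1454 CPM in mCherry and 1452 and 1508 in ZF-SCN9A, Hsp90ab1 at 4424 and 4498 and 4691 and 4713, and Hsp90aa1 at 938 and 887 and 960.4 and 955. The log2 fold changes of all 3 were 0.08, with intervals of -0.04 to 0.20, -0.03 to 0.20 and -0.04 to 0.20. Dnajb1, the J-domain co-chaperone induced with HSP70 by heat, was at 75.4 and 79.0 CPM against 83.7 and 87.8, without overlap, and its 0.15 ± 0.09 did not pass (adjusted p = 0.417). Dnajb4 had 0.23 ± 0.18 with 16.1 and 13.2 CPM in mCherry and 18.0 and 15.9 in ZF-SCN9A.

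The log2 fold changes of the ER chaperones Hspa5 and Hsp90b1 were smaller than their SE, and their groups overlapped. Hspa5 was at 899.7 and 948 CPM in mCherry and 873 and 948 in ZF-SCN9A, a log2 fold change of -0.02 ± 0.06 (interval -0.13 to 0.10), and Hsp90b1 was at 574 and 539 and 545 and 530.2 (-0.04). Xbp1 was at 155 and 158 and 159 and 168 CPM, without overlap (0.06, adjusted p = 0.765 by edgeR). Herpud1, an ER membrane protein of the degradation pathway, had the lowest p of the ER members, at 127 and 122 CPM in mCherry and 138 and 136 in ZF-SCN9A. Its groups did not overlap, and its 0.15 ± 0.08 did not pass (adjusted p = 0.339). Sel1l (165 and 177 against 182 and 189 CPM, 0.12 ± 0.07) and Edem1 (117 and 122 against 119.8 and 134, 0.09 ± 0.08) had positive values, opposite in sign to those with dCas9. Dnajc3 had the most negative ER value, -0.11 ± 0.11, at 56.9 and 60.1 against 55.1 and 52.7 CPM. The mitochondrial Hspd1 was at 534 and 506 and 582 and 538 CPM (0.12 ± 0.06, adjusted p = 0.346), and Hspe1 at 149 and 152 and 160.0 and 151 (0.05). Groups did not overlap for 13 of 32 members, or 40.6%, beside 45.8% of all genes tested.

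**Figure D3:**
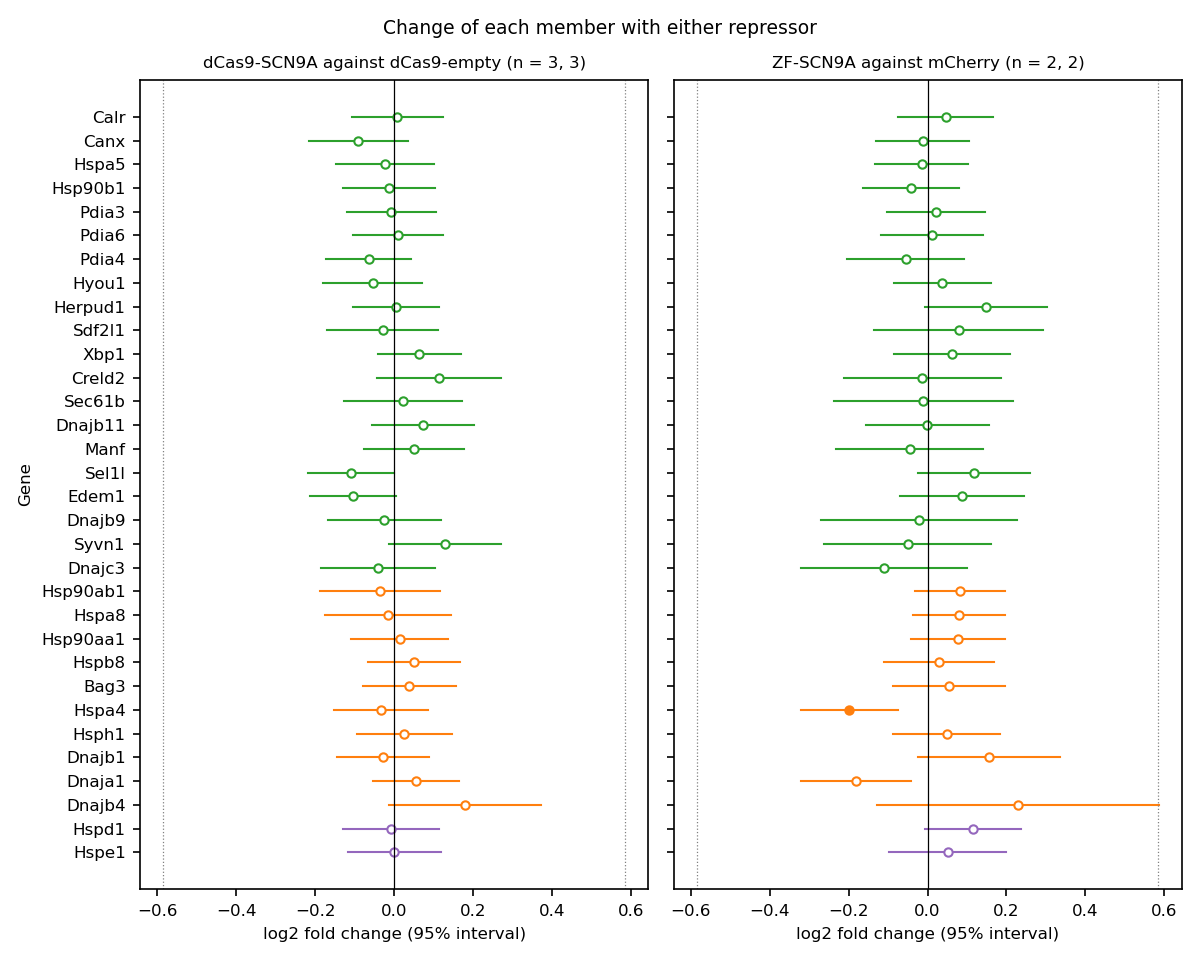
Log2 fold change with its 95% interval (horizontal axis) for 32 members with dCas9 (left, n = 3 and 3) and the zinc finger (right, n = 2 and 2), in green for ER, orange for cytosolic and purple for mitochondrial genes, with dotted lines at a change of 1.5-fold. Hspa1b is not drawn, Hspa4 with the zinc finger is the only filled point (adjusted p under 0.05), and intervals lie inside the dotted lines in both panels except Dnajb4 with the zinc finger.

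The difference between the changes with either repressor was tested over all 10 libraries, and 0 of 33 members passed, against 0.907% of 15766 genes. At an unadjusted p under 0.05 there were 2 members, against 10.9% of all genes, and DESeq2 called 0 of 32. The values were 0.24 ± 0.09 for Dnaja1 (adjusted p = 0.263) and -0.22 ± 0.09 for Sel1l (adjusted p = 0.321), each the dCas9 value minus the zinc-finger value. For Hspa5 the difference was -0.00 with a 95% interval of -0.18 to 0.18. The interval lay within 1.5-fold for 32 of 33 members, with Hspa1b again outside (-1.29 to 3.33).

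More members were called between the arms than between a repressor and its control. Against mCherry, the dCas9-empty libraries held more RNA of the cytosolic and mitochondrial chaperones and less of a part of the ER chaperones. This control comparison, dCas9-empty against mCherry, called 17 of 33 members, against 35.9% of all genes tested. Of 11 cytosolic members 6 were higher and 0 lower in dCas9-empty, both mitochondrial members were higher, and of 20 ER members 2 were higher and 7 lower, where 18.6% of all genes were higher and 17.2% lower. Median log2 fold changes were 0.42, 0.39 and -0.01 for the cytosolic, mitochondrial and ER members, beside -0.00 over all genes. Absolute log2 fold changes had medians of 0.42, 0.39 and 0.14 in the same order. They had a median of 0.23 over all members and 0.28 over all genes. The median SE was 0.065 for all members and 0.124 over all genes, so smaller differences could be called among the members. These arms differed in the plasmid, in depth and in the share of listed reads on plasmid entries (0.881% to 0.986% in dCas9-empty and 2.04% to 2.09% in mCherry), and cause and arm cannot be told apart. With plain library sizes in place of TMM scaling the calls over all genes were 2170 higher and 3781 lower rather than 2937 and 2718, and the median gene moved from -0.00 to -0.09. Under that scaling 6 cytosolic members were higher and 2 lower (Hspa4 and Dnaja1), and 2 ER members were higher and 9 lower.

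The repressor libraries gave the same directions for the members called in both comparisons. They shared no library with the controls, but both comparisons came from 1 fit and hold the same difference between the arms. In that fit the repressor value is the control value plus the difference between the repressors' changes, so the agreement is not an independent repeat. This comparison of dCas9-SCN9A with ZF-SCN9A was chosen after seeing the control comparison. It called 20 of 33 members against 32.7% of all genes, with 7 of 11 cytosolic members higher and 0 lower, both mitochondrial members higher, and 4 ER members higher and 7 lower, where 17.4% of all genes were higher and 15.3% lower. In both comparisons 15 members were called in the same direction and 0 in opposite directions, beside 22.2% of all genes called in both in the same direction. Those 15 make up 15 of the 17 called between controls and 15 of the 20 called between repressor libraries. Over all genes, 3499 were called in both in the same direction, of 5655 called between controls and 5148 between repressor libraries. Dnajb11 and Manf were called only between the controls, and Edem1, Herpud1, Hsp90b1, Hspa1b and Syvn1 only between the repressor libraries. Whether these 7 differ between the comparisons is the test of the difference above, which none of them passed. With plain library sizes the calls over all genes were 1996 higher and 3401 lower rather than 2742 and 2406. Plasmid entries took 1.05% to 1.21% of listed reads in dCas9-SCN9A and 2.71% to 2.83% in ZF-SCN9A. Each range lay above that of its own control, 0.881% to 0.986% in dCas9-empty and 2.04% to 2.09% in mCherry. The part of this share in the repressor comparisons was not tested.

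Hspa8 had the largest called value of the cytosolic members between the controls. Its lowest dCas9-empty library, at 2266 CPM, was far above its highest mCherry library, at 1454 CPM, with a log2 fold change of 0.76 ± 0.07 (adjusted p = 8.17e-09 by edgeR), and between the repressor libraries it was 0.67 ± 0.07 (adjusted p = 7.47e-08). Hsph1, an HSP110 that works with Hspa8 in pulling apart aggregates, was at 336, 316 and 329.7 CPM in dCas9-empty, 331, 313 and 355 in dCas9-SCN9A, 218 and 214 in mCherry and 226 and 219 in ZF-SCN9A. The arms did not overlap, at 0.60 ± 0.06 and 0.58 ± 0.06. Hsp90ab1 had 0.53 ± 0.07 between controls and 0.41 ± 0.07 between repressor libraries, and Hsp90aa1 0.34 ± 0.06 and 0.28 ± 0.06. Bag3, the co-chaperone that links Hspa8 to autophagy and small heat shock proteins, was at 234, 242 and 225 and 224, 256 and 239.8 CPM in the dCas9 arm and 181 and 169 and 169.6 and 194 in the other (0.42 ± 0.07 and 0.41 ± 0.07). Dnajb1 had 0.44 ± 0.07 and 0.27 ± 0.07 (the second lost without ZF-SCN9A replicate 1, 0.24 with adjusted p = 0.0878), with 106, 107 and 102 CPM in dCas9-empty and 96.6, 106 and 106 in dCas9-SCN9A. Hspa4 and Dnaja1 were the cytosolic members with a negative sign between controls (-0.10 and -0.10), and both were positive between the repressor libraries (0.07 and 0.14), with no call in either. With an exon length correction Dnaja1 was called higher between the repressor libraries (0.21, adjusted p = 0.0117). Hspa1b was 2.39 ± 0.92 higher in dCas9-SCN9A than in ZF-SCN9A (adjusted p = 0.0163), from 42, 23 and 24 counts against 2 and 2, and the call was lost without either ZF-SCN9A library (adjusted p = 0.193 without replicate 1 and 0.0873 without replicate 2) or dCas9-SCN9A replicate 1 (0.0503).

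The partners Hspd1 and Hspe1, which share the promoter stretch printed above, were both higher in the dCas9 arm. Between controls the log2 fold change was 0.31 ± 0.06 for Hspd1 and 0.47 ± 0.07 for Hspe1, and between repressor libraries 0.19 ± 0.06 and 0.42 ± 0.07. The call of Hspd1 between repressor libraries was lost without dCas9-SCN9A replicate 3 (0.17, adjusted p = 0.0621 by edgeR) or ZF-SCN9A replicate 2 (0.14, adjusted p = 0.241), and with an exon length correction (0.14, adjusted p = 0.0854). Annotated exons of the genes overlap on opposite strands over 4.24% of the exon bases of Hspd1 and 7.60% of those of Hspe1. The 3 members with a heat shock element, Hsph1 among them, were all called higher in both comparisons, as were 7 members without one in their window or with no window at hand.

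ER members went in both directions, with and without an ERSE. Pdia3 and Pdia6, protein disulfide isomerases that form and rearrange disulfide bonds, were higher in the dCas9 arm. Pdia3 was at 508, 489.7 and 472 CPM in dCas9-empty and 407 and 385 in mCherry (0.31 ± 0.06, adjusted p = 0.000165 by edgeR), and Pdia6 at 354, 351 and 327 and 269.8 and 295 (0.29 ± 0.06). In the repressor libraries they were at 473, 487 and 501 against 406 and 392 and at 330.3, 359.9 and 349.6 against 275 and 293 CPM. Lower in the dCas9 arm in both comparisons were Hspa5, Hyou1, Dnajc3, Creld2 and Sel1l. Hyou1, the ER HSP110 that exchanges nucleotide on Hspa5 (chr9:44379490-44392369, + strand), was at 429, 389.6 and 380.1 CPM in dCas9-empty, 379.7, 367 and 406 in dCas9-SCN9A, 514 and 543 in mCherry and 527 and 553 in ZF-SCN9A. The log2 fold changes were -0.40 ± 0.06 (adjusted p = 9.61e-06) and -0.49 ± 0.06 (adjusted p = 5.75e-07). Hspa5 had -0.25 ± 0.06 in the first and -0.25 ± 0.06 in the second, and its call was lost between controls without mCherry replicate 2 (-0.21, adjusted p = 0.0629) and between repressor libraries without ZF-SCN9A replicate 2 (-0.19, adjusted p = 0.107). Dnajc3 was at 45.4, 41.8 and 43.3 and 41.6, 40.8 and 44.4 CPM in the dCas9 arm against 56.9 and 60.1 and 55.1 and 52.7 (-0.43 and -0.35, the second lost without ZF-SCN9A replicate 1 at -0.31 with adjusted p = 0.0701). Creld2 (-0.39 and -0.26) was at 63.0 and 65.5 CPM in mCherry and 62.3 and 64.7 in ZF-SCN9A, and Sel1l had -0.29 and -0.51.

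Of the 8 members with an ERSE, 1 was higher (Pdia6) and 3 lower (Hspa5, Dnajc3, Creld2) between controls, and 3 were higher and 3 lower between repressor libraries. Dnajb11, an Hspa5 co-chaperone with 113, 98.6 and 106 CPM in dCas9-empty and 134 and 114 in mCherry, and Manf, a secreted ER stress-induced factor with 66.6, 64.1 and 67.3 and 72.9 and 79.0, were lower between controls at -0.23 and -0.20. Both calls were lost without mCherry replicate 1 (-0.09 with adjusted p = 0.508 for Dnajb11 and -0.25 with adjusted p = 0.0630 for Manf) or dCas9-empty replicate 2 (-0.18 with adjusted p = 0.106 and -0.18 with adjusted p = 0.113), and that of Manf also without mCherry replicate 2 (-0.14, adjusted p = 0.332) or dCas9-empty replicate 1 (-0.21, adjusted p = 0.0519). Syvn1 and Hsp90b1 were higher in dCas9-SCN9A than in ZF-SCN9A (0.33 and 0.16), and Edem1 and Herpud1 lower (-0.29 and -0.20). The calls of Hsp90b1, Herpud1 and Creld2 between repressor libraries were each lost without either ZF-SCN9A library and without dCas9-SCN9A replicate 1 (adjusted p from 0.0517 to 0.223). That of Creld2 was also lost without dCas9-SCN9A replicate 2, and that of Hsp90b1 without dCas9-SCN9A replicate 2 or 3 or dCas9-empty replicate 2. The calls of Edem1 and Syvn1 were lost without ZF-SCN9A replicate 2 (adjusted p = 0.0698 and 0.0549). Among ER members, no call was made in either comparison for Calr, Canx, Pdia4, Sdf2l1, Dnajb9, Sec61b and Xbp1, whose log2 fold changes between controls ran from -0.14 (Xbp1) to 0.14 (Sdf2l1). Xbp1 was called lower in both comparisons with an exon length correction (-0.16 and -0.16, adjusted p = 0.0369 and 0.0361 by edgeR) and with plain library sizes (-0.23 and -0.22, adjusted p = 0.00354 and 0.00611).

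The counts of all cytosolic members summed to 2.05, 2.13 and 2.03 times those of all ER members in dCas9-empty and to 2.07, 2.17 and 2.00 times in dCas9-SCN9A. In mCherry the ratio was 1.44 and 1.45, and in ZF-SCN9A 1.49 and 1.502. This ratio is taken within a library, so that library scaling does not enter it. The arms did not overlap in it. Within the dCas9 arm the repressor and control libraries overlapped, and within the other arm both ZF-SCN9A libraries were above both mCherry libraries. Hsp90ab1 and Hspa8, the most abundant members, weigh most in it.

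**Figure D4:**
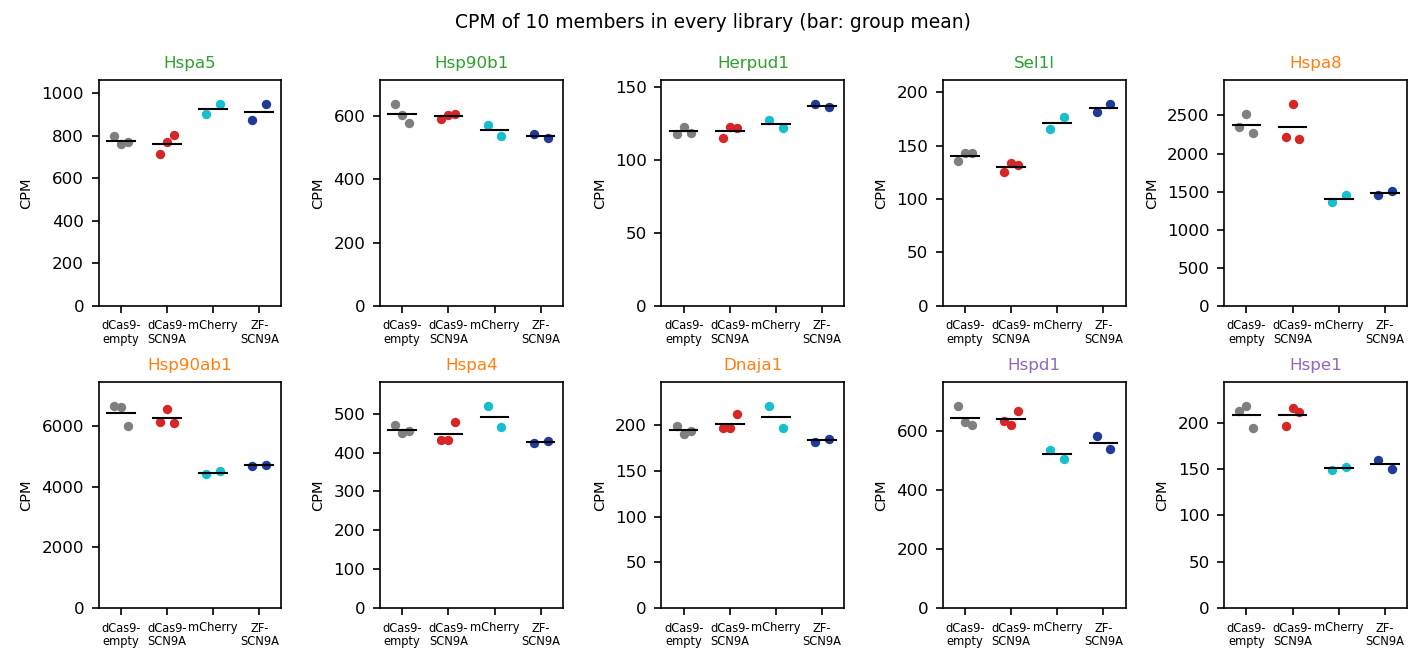
CPM on a linear axis from 0 in every library for 10 members, with 1 point per library, the group mean as a bar, and title colours for the compartment (green ER, orange cytosolic, purple mitochondrial). Hspa8 and Hsp90ab1 are higher in the dCas9 arm and Hspa5 and Sel1l lower, and Hspa4 shows 1 high mCherry library at 519 CPM beside 467 and the ZF-SCN9A libraries at 425 and 430.0.

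**Figure D5:**
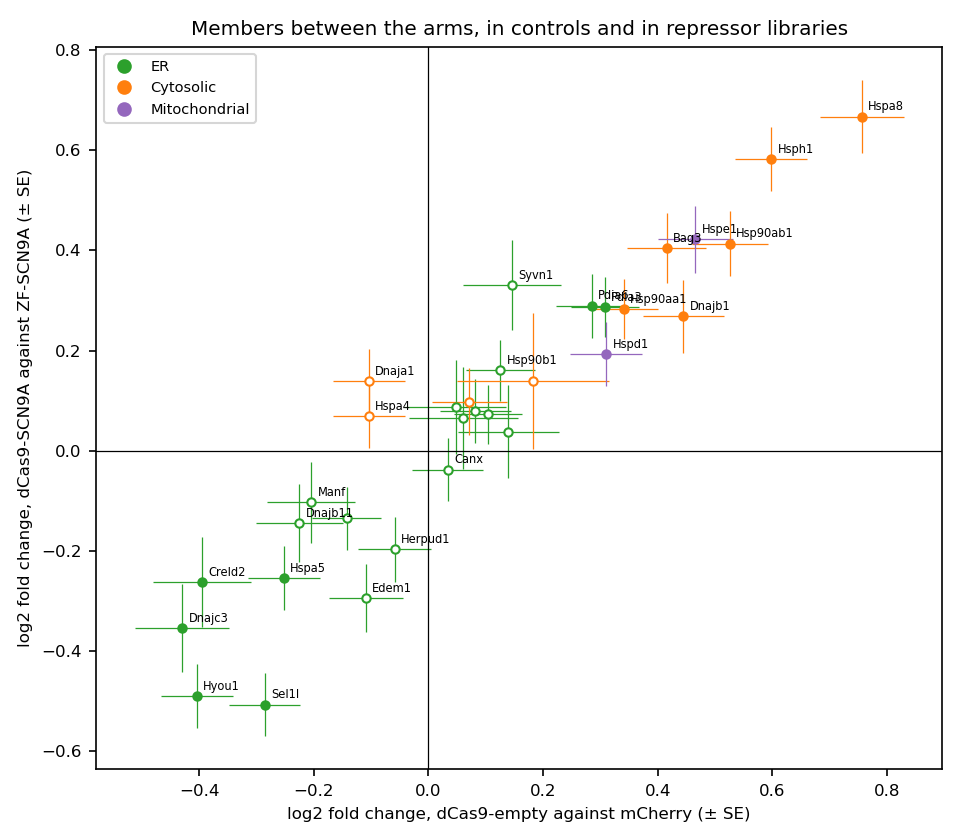
Log2 fold change (± SE) of 32 members between the controls (horizontal axis) and between the repressor libraries (vertical axis) of the arms, in green for ER, orange for cytosolic and purple for mitochondrial genes. The 15 filled points were called in both comparisons, 10 in the upper right and 5 in the lower left, and the latter are all ER members.

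Other genes of these pathways were taken from lists written out by name. With dCas9, 0 genes were called in any of the 6 lists, where 0.041% of all genes tested were called. The lowest p-values were those of Atf3, a stress-induced transcription factor of the unfolded protein response, with 0.51 ± 0.12 (adjusted p = 0.156 by edgeR), and Edem3, a mannosidase of ER-associated degradation, with -0.27 ± 0.06 (adjusted p = 0.156). Both passed with replicate number as a block and with no filter on low counts. Atf3 also passed in an edgeR fit over all 10 libraries (adjusted p = 0.0475), and Edem3 with DESeq2 (adjusted p = 0.0367). Atf3 stood at 10.8, 10.6 and 10.6 CPM in dCas9-empty and 13.6, 13.99 and 18.0 in dCas9-SCN9A, and Edem3 at 71.0, 69.8 and 73.1 and 60.3, 56.9 and 60.4, without overlap for either gene. In the remaining lists the lowest p was that of the prolyl isomerase Ppib (0.16) among ER folding enzymes, the translocon subunit Sec61a1 (-0.12), the heat shock factor Hsf1 (0.13) and the mitochondrial protease Yme1l1 (-0.10), with adjusted p from 0.358 to 0.525.

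With the zinc finger 7 genes of these lists were called, where 4.72% of all genes tested were called. The shares were 18.8% of 16 sensors and effectors, 3.45% of 29 other ER folding enzymes and 5.56% of 36 other cytosolic chaperones. They were 6.67% of 15 mitochondrial genes, 0% of 17 translocon genes and 0% of 17 degradation genes. Of 16 sensors and effectors of the unfolded protein response 3 rose and 0 fell, beside 1.95% of all genes tested that were higher and 2.78% that were lower. Trib3, a pseudokinase induced by Atf4 and Ddit3, rose from 144 and 154 to 193 and 208 CPM (0.43 ± 0.07, adjusted p = 5.54e-07 by edgeR), while with dCas9 it was at 0.00. Atf3 rose from 25.9 and 29.4 to 39.4 and 39.0 CPM (0.51 ± 0.13, adjusted p = 0.00545), and Creb3l2, an ER-anchored transcription factor, from 103 and 133 to 138 and 142 CPM (0.25 ± 0.08, adjusted p = 0.0434). Atf4, Ddit3, Atf6, Ern1 and Eif2ak3 were not called with either repressor. Serpinh1, the collagen chaperone of the ER, was the 1 of 29 other ER folding enzymes called, from 2.22 and 5.07 to 8.07 and 7.84 CPM (1.11 ± 0.31, adjusted p = 0.0124), and 1 of the 4 fibroblast markers tested, Col1a1, was also called higher in that comparison (1.07). The other 3 were Pdgfra (-0.22), Pdgfrb (-0.07) and Dcn (0.09), with no call, and the summed level of all 6 was 27.7 to 33.0 CPM in mCherry and 28.5 to 33.2 in ZF-SCN9A. The part of fibroblast RNA in this result was not tested. None of 17 translocon and signal peptidase genes (lowest p Serp1, -0.22, adjusted p = 0.0679) or 17 degradation genes (lowest p Edem3, -0.18, adjusted p = 0.295) passed.

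Of 36 other cytosolic chaperones and regulators 2 fell and 0 rose, beside 2.78% of all genes tested that were lower and 1.95% that were higher. Hspa4l, a relative of Hspa4 in the HSP110 family, fell from 196 and 181 to 127 and 127 CPM (-0.56 ± 0.08, adjusted p = 4.77e-11 by edgeR), against -0.06 with dCas9. Hsf2, a heat shock transcription factor, fell from 79.3 and 71.2 to 60.4 and 57.7 CPM (-0.34 ± 0.10, adjusted p = 0.0218). Trap1, the mitochondrial HSP90, was the 1 of 15 mitochondrial chaperones and proteases called and rose from 102 and 119 to 140.5 and 135 CPM (0.33 ± 0.08, adjusted p = 0.00236). The difference between the repressors passed for Trib3 (-0.43 ± 0.09, adjusted p = 0.00762) and Hspa4l (0.51 ± 0.09, adjusted p = 0.000743). The second kept its call in every fit that left out 1 library, and the first lost it without mCherry replicate 1 (-0.38, adjusted p = 0.111) or ZF-SCN9A replicate 2 (-0.38, adjusted p = 0.105). Leaving out 1 library of the comparison ended none of the zinc-finger calls of Trib3 and Hspa4l. Those of Atf3, Hsf2, Creb3l2 and Serpinh1 were lost without mCherry replicate 1 or either ZF-SCN9A library, and that of Trap1 without mCherry replicate 1 or ZF-SCN9A replicate 1. Without mCherry replicate 1 the log2 fold change was 0.08 for Creb3l2 and 0.66 for Serpinh1.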

How the data were processed

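Gene counts of 10 RNA-seq libraries of Neuro2a cells were analysed. The deposited values are raw, unnormalised counts of reads per gene, laid out as STAR writes them, per the file headers and values. The submitters' processing notes name STAR 2.7.3a, bcl2fastq 2.20, GRCm38 and DESeq2. For the authors' annotation release and counting, settings were not given in the sources used here. Both strand columns held similar numbers of reads (50.0% to 50.2% in one of them), so the unstranded column was used, and a gene cannot be told apart from an overlapping gene on the other strand. Entries naming no gene (25.0% to 28.2% of listed reads) and 4 plasmid entries were left out. Of 55401 identifiers, 55141 were matched to GENCODE M21, which gave symbols, coordinates and exon lengths.

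edgeR 4.0.16 (R 4.3.3) was run with TMM scaling, its filter on low counts by group, robust quasi-likelihood fits and two-sided tests, with Benjamini-Hochberg adjustment over all genes tested and calls at an adjusted p under 0.05. Each repressor was fitted with its own control (14628 and 12899 genes, with 4 and 2 residual degrees of freedom). In the zinc-finger fit 88.0% of genes had infinite prior degrees of freedom, so their p-values rest on spread shared across genes. The difference between repressors and the comparisons between arms came from 1 fit over all 10 libraries (15766 genes). CPM and RPKM are on the scale of that fit. The code was tested on simulated counts. DESeq2 1.42.0, other scalings, filters, an exon length correction, a replicate block and left-out libraries were alternatives.

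The members and lists were chosen with earlier results of these data known. Library values are given for members called in any comparison. They are also given for the 3 per compartment with the lowest p and the 3 with the largest change in either repressor comparison. Hspa1a, Hspa1b, Hspa5, Hsp90b1, Xbp1, Hspa8, Hsp90aa1, Hsp90ab1, Hspd1 and Hspe1 have them whatever their values. For some genes the values cover only part of the groups. From the other lists, called genes are named, or else the gene with the lowest p. Promoter sequences are from RefSeq (GRCm38.p6).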

Additional observations from a re-analysis of the deposited data

How the results depend on the processing

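Under all alternatives run, 0 members were called in the dCas9 comparison and 0 in the difference between repressors, and no called value changed sign. The count over all genes depended strongly on the setting. In the dCas9 comparison 6 genes were called, against 29 in a fit over all 10 libraries, 68 with DESeq2, 2 with an exon length correction, 172 without a filter on low counts and 1 to 34 without 1 library. In the zinc-finger comparison 609 became 348 in the fit over all libraries, 115 with DESeq2 and 201 to 787 without 1 library. In the difference between repressors 143 became 274 without a filter and 71 to 241 without 1 library, and between controls 5655 became 3523 to 5866 without 1 library. The cause was not tested. The 1 member called with the zinc finger, Hspa4, became 0 in the fit over all libraries (adjusted p = 0.132 by edgeR), with DESeq2 and with plain library sizes (-0.19, adjusted p = 0.0577), and 0 to 2 members were called without 1 library. The median of the ER members with the zinc finger ran from -0.00351 to 0.0299 without 1 library.

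Between controls, the median of the ER members was -0.01, and -0.0869 with the exon length correction, -0.10 with plain library sizes, 0.0308 without a filter and -0.0547 to -0.00147 without 1 library. That of the cytosolic members was 0.42, and 0.33 with plain library sizes, 0.46 without a filter and 0.37 to 0.44 without 1 library. With plain library sizes the lower cytosolic members went from 0 to 2. Between controls 15 to 18 members were called without 1 library, with 2 to 3 ER members higher, 5 to 7 lower and 6 to 7 cytosolic members higher. Between repressor libraries the median of the ER members was -0.07, and -0.14 with the exon length correction and -0.16 with plain library sizes, and that of the cytosolic members was 0.28, and 0.20 with plain library sizes. Higher mitochondrial members went from 2 to 1 under both of these settings. Without 1 library 3199 to 5267 genes and 12 to 20 members were called there, with 2 to 4 ER members higher, 3 to 7 lower, 5 to 7 cytosolic and 1 to 2 mitochondrial members higher. Between controls, Hspa1b was called higher without a filter or without dCas9-empty replicate 2 or 3, Hsp90b1 without a filter and Sdf2l1 without mCherry replicate 2, and Xbp1 (also with an exon length correction), Edem1, Hspa4 and Dnaja1 lower with plain library sizes, while DESeq2 ended the call of Manf and no filter those of Manf and Dnajb11. Between repressor libraries plain library sizes ended the calls of Hsp90b1, Dnajb1 and Hspd1, no filter those of Herpud1 and Creld2, and DESeq2 that of Creld2, while Xbp1 and Dnajb11 were called lower with plain library sizes, and Xbp1 lower and Dnaja1 higher with an exon length correction.

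With DESeq2 the zinc-finger calls of Atf3, Hsf2, Creb3l2, Serpinh1 and Trap1 were lost (adjusted p = 0.436, 0.561, 0.874, 0.671 and 0.328), and in the fit over all 10 libraries those of Hsf2, Creb3l2 and Serpinh1. The replicate block and the fit with no filter also ended that of Creb3l2. For the difference between repressors, Hsf2, Creb3l2, Serpinh1 and Trap1 passed with the replicate block. Hsf2, Creb3l2 and Serpinh1 passed there with no filter as well.

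Replicate numbers were not shown to pair libraries. Deviations of same-numbered libraries correlated at 0.24, 0.16 and 0.04 in the dCas9 arm and 0.07 in the other. In a fit with a replicate block, 262 genes were called with dCas9, 569 with the zinc finger and 429 for the difference, with 0 members in the first and last and Hspa4 in the second. No block was run between arms, which share only a number.

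Depth of 4.41 to 7.48 M counts in the zinc-finger arm, with 2 libraries a group, limits what can be seen there, and Hspa1a, Hspa1b and Hspb1 were too low to test in it.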

Other observations

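Some of the lists of related genes held more calls between the arms than all genes tested did. A larger share of calls did not always go with larger differences. Between controls the median absolute log2 fold change was 0.41 for sensors and effectors of the unfolded protein response, beside 0.28 over all genes. It was 0.26 for the other cytosolic chaperones and 0.19 for the other genes of ER-associated degradation. The median SE was 0.076, 0.071 and 0.073 in these lists, beside 0.124 over all genes. Of 16 sensors and effectors of the unfolded protein response, 4 were higher and 10 lower in dCas9-empty than in mCherry, where 18.6% of all genes were higher and 17.2% lower. Between dCas9-SCN9A and ZF-SCN9A 3 were higher and 9 lower, beside 17.4% and 15.3% of all genes. In both comparisons 12 were called in the same direction, beside 22.2% of all genes. Without 1 library 2 to 4 were higher and 9 to 10 lower between controls (2 higher without mCherry replicate 2), and 2 to 3 and 8 to 9 between repressor libraries. Atf3 had the largest called value of that list, -1.37 in each, at 10.6 to 10.8 CPM in dCas9-empty and 25.9 and 29.4 CPM in mCherry. Ddit3, the pro-apoptotic factor also called CHOP, was lower at -0.62 and -0.53, Atf4 at -0.33 and -0.28, Atf6 at -0.33 and -0.59, Ern1 at -0.41 and -0.41, and Ppp1r15a, which restores translation after stress, at -0.69 and -0.71. These 6 genes kept their calls without each library in turn. Creb3l1, an ER-anchored transcription factor, was higher at 0.73 and 0.94, and its calls were lost without mCherry replicate 2 (adjusted p = 0.142 by edgeR) and ZF-SCN9A replicate 1 (adjusted p = 0.155). Counts under plain library sizes were 4 higher and 10 lower between controls and 3 higher and 10 lower between repressor libraries.

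Of 37 other cytosolic chaperones and regulators, 17 were higher and 5 lower between controls, where 18.6% of all genes were higher and 17.2% lower. Between repressor libraries 15 were higher and 3 lower, beside 17.4% and 15.3% of all genes. In both comparisons 12 were higher and 3 lower, beside 22.2% of all genes called in both in the same direction. These 12 held Stip1, which joins Hspa8 to Hsp90 (0.51 and 0.45), the Hsp90 activators Ahsa1 (0.38 and 0.45) and Ahsa2 (0.46 and 0.51), and 6 subunits of the chaperonin that folds actin and tubulin, from Cct4 (0.54 and 0.47) and Cct5 (0.54 and 0.48) to Cct3 (0.29 and 0.27) and Cct7 (0.30 and 0.21). Of these named genes, Cct7 lost its call between repressor libraries without either ZF-SCN9A library, and no other lost a call without 1 library. With plain library sizes the counts were 13 higher and 6 lower, and 11 higher and 6 lower. Without 1 library they were 14 to 18 higher and 1 to 5 lower between controls (1 lower without mCherry replicate 1, 3 without mCherry replicate 2 or dCas9-empty replicate 2), and 11 to 15 higher and 1 to 4 lower between repressor libraries (1 lower without ZF-SCN9A replicate 1).

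Of 18 other genes of ER-associated degradation, 1 was higher and 9 lower between controls, and 1 higher and 7 lower between repressor libraries (0 and 11, and 0 and 9, with plain library sizes). The 9 lower became 4 without mCherry replicate 1 or without a filter on low counts. The 7 lower became 2 without ZF-SCN9A replicate 2 or without a filter, 3 without dCas9-SCN9A replicate 1, and 4 without ZF-SCN9A replicate 1 or with DESeq2. Of all genes tested 35.9% were called between controls and 32.7% between repressor libraries. In the remaining lists the shares were 40.0% and 33.3% of 30 other ER folding enzymes, 41.2% and 35.3% of 17 translocon and signal peptidase genes, and 26.7% and 46.7% of 15 mitochondrial chaperones and proteases. Plasmid, depth and other differences between the arms cannot be told apart in these values.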
